A study of Mus musculus with 15 samples.

Results

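Nr4a1 and Atf3 belong to the activity-induced genes, the first genes that neurons and other cells transcribe after a stimulus, and both were measured in brains of O377 mutant mice. The rule named 10 such genes: Nr4a1, Atf3, Fos, Fosb, Junb, Jun, Egr1, Egr2, Arc and Ier2. Of these, 6 had a probe annotated with that gene alone, 7 probes in all, and 4 probes were kept because they were measured on 4 or more arrays per dye orientation. The kept probes were those of Nr4a1, Atf3, Jun and Ier2, 4 of 4369 genes with a tested probe of their own and 4 of 8058 tested probes, out of 20205 probes on the array. Nr4a1 and Atf3 were selected on their measured log ratios from these same arrays, so their values are given as a description, without a test.

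Activity-induced genes are switched on within minutes without new protein synthesis, by kinases that act on factors such as CREB and SRF already bound to their promoters. Fos, Fosb, Jun and Junb encode subunits of the AP-1 transcription factor, Atf3 a related basic leucine zipper protein induced by stress and injury, and Nr4a1 an orphan nuclear receptor. Egr1 and Egr2 are zinc finger factors, Ier2 is a small nuclear protein, and Arc is a synaptic protein whose RNA travels to dendrites. In brain these RNAs are widely used as marks of recent neuronal activity, and they also respond to handling and to the way tissue is taken.

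The mutants were homozygous for O377, whose lesion lies in Crybb2, a crystallin gene best known from the lens, and their controls were wild-type mice. On each of 15 arrays mutant RNA, for which the labels name 5 brains, was set against 1 pool made from 4 wild-type brains. Mutant RNA was labelled with Cy5 on 7 arrays and with Cy3 on 8. The sources used here name no age, sex or strain, and do not tell which mutant brain, or whether a mixture of them, was on an array. P-values therefore rest on array-to-array spread that may be technical, and leave out the spread of the control, whose pool is 1 sample.

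Values are log ratios, taken as log2, and the sources used here do not say whether they run Cy5 over Cy3 or mutant over wild type. Each probe is therefore described by a dye-switching component, the mean with mutant RNA in Cy5 minus the mean with mutant RNA in Cy3, divided by 2, and by a shared component, the mean of these means. If values run Cy5 over Cy3, the dye-switching component is mutant against wild type, positive meaning higher in the mutant, and the shared component is a dye effect. If values run mutant over wild type, the roles are exchanged. Ratios hold no expression level, so the brain label could not be checked against marker levels, and fewer cells expressing a gene cannot be told apart from less RNA per cell. Each array gave values for 38.8% to 52% of its probes, and array medians lay between -0.0062 and 0.0165. Arrays 9 and 10 had the widest interquartile ranges, 0.731 and 0.892, against 0.386 to 0.578 on the others.

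The promoters of Nr4a1 and Atf3 are shown because these genes were selected on different components and both are textbook targets of factors that bind the cyclic AMP response element, CRE. Each line gives the 250 bases before the RefSeq transcription start in GRCm38.p6, read 5′ to 3′ along the gene, with capitals marking the CRE core, TGACG, or its reverse complement CGTCA. The Nr4a1 window is chr15:101266596-101266845 on the plus strand and the Atf3 window is chr1:191183334-191183583 on the minus strand.
Nr4a1: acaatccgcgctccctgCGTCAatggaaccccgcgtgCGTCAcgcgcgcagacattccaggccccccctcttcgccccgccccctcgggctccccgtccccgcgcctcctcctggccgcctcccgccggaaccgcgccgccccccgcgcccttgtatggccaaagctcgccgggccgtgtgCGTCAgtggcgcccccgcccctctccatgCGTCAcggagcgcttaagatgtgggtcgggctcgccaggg
Atf3: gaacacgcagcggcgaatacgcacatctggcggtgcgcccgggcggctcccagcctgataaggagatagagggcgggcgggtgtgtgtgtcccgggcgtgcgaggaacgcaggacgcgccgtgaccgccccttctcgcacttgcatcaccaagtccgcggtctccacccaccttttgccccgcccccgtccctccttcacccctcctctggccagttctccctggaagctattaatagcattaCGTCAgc
The Nr4a1 window held 4 such cores, which began 233, 213, 69 and 40 bases before the start. The Atf3 window held 1, beginning 7 bases before the start, and the Jun window held 0. Of 32851 promoter windows of that length, 17.8% held at least 1 core and 0.137% held at least 4. The limit of 4 is the count of Nr4a1 itself, so nothing is read from that smaller share. None of the Nr4a1, Atf3 and Jun windows held the full palindrome TGACGTCA (present in 1.55% of all windows), the AP-1 site TGACTCA (4.46%), the Nr4a1 binding element AAAGGTCA (1.34%) or the SRF-binding CArG box (1.47%), each searched on both strands. Of the genes in the rule without a kept probe, Fos, Fosb, Junb and Egr2 also held cores in their windows, and Egr2 held CArG boxes as well. The full palindrome holds the core on each strand and counts as 2 cores. A match is a description of letters, not of a bound site, and the arrays measured RNA, not binding.

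Nr4a1 encodes NUR77, an orphan nuclear receptor that neurons induce with electrical activity. With mutant RNA in Cy5 its log2 ratio ran from -0.07 through a median of 0.21 to 0.37 over 7 arrays. With mutant RNA in Cy3 it ran from -0.81 through a median of -0.39 to -0.26 over 8 arrays. Every Cy5 value thus lay above every Cy3 value. The orientations did not overlap, whichever of them was higher, in 73 of 8058 tested probes, 0.906%. The tested probes include some with fewer values than Nr4a1, which separate more easily by chance. The only value on the other side of 0 from its orientation was array 13, at -0.07, and the lowest values were those of arrays 11 and 12, at -0.81 and -0.75. The means were 0.19 ± 0.16 (SD, n = 7 arrays) and -0.46 ± 0.22 (SD, n = 8 arrays), so the Cy3 side stood farther from 0. The dye-switching component of Nr4a1 was 0.32 ± 0.06 (SE), a 1.25-fold difference, and its shared component was -0.13 ± 0.06. By size the dye-switching component ranked 374 among the tested probes. Its spread within an orientation was small: the residual SD of 0.19 exceeded that of 6.65% of tested probes, whose median was 0.34.

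Atf3 encodes a transcription factor of the CREB family that is low in unstressed tissue and rises after injury, seizures or cellular stress. Its log2 ratio with mutant RNA in Cy5 ran from -0.26 through a median of 0.26 to 0.56. With mutant RNA in Cy3 it ran from 0.06 through a median of 0.24 to 0.52. The orientations overlapped, and 14 of 15 values were above 0, the exception being array 1 at -0.26. Among 4135 tested probes with a value on all 15 arrays, 22, or 0.532%, had the same sign on at least 14. The means of Atf3 were 0.21 ± 0.27 (SD, n = 7) and 0.26 ± 0.15 (SD, n = 8), which gave a shared component of 0.24 ± 0.06 (SE), a 1.18-fold ratio, and a dye-switching component of -0.02 ± 0.06. By size the shared component ranked 803 among the tested probes, next to that of Jun at 824. The residual SD was 0.21, at percentile 11.4 of all tested probes.

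**Figure D1:**
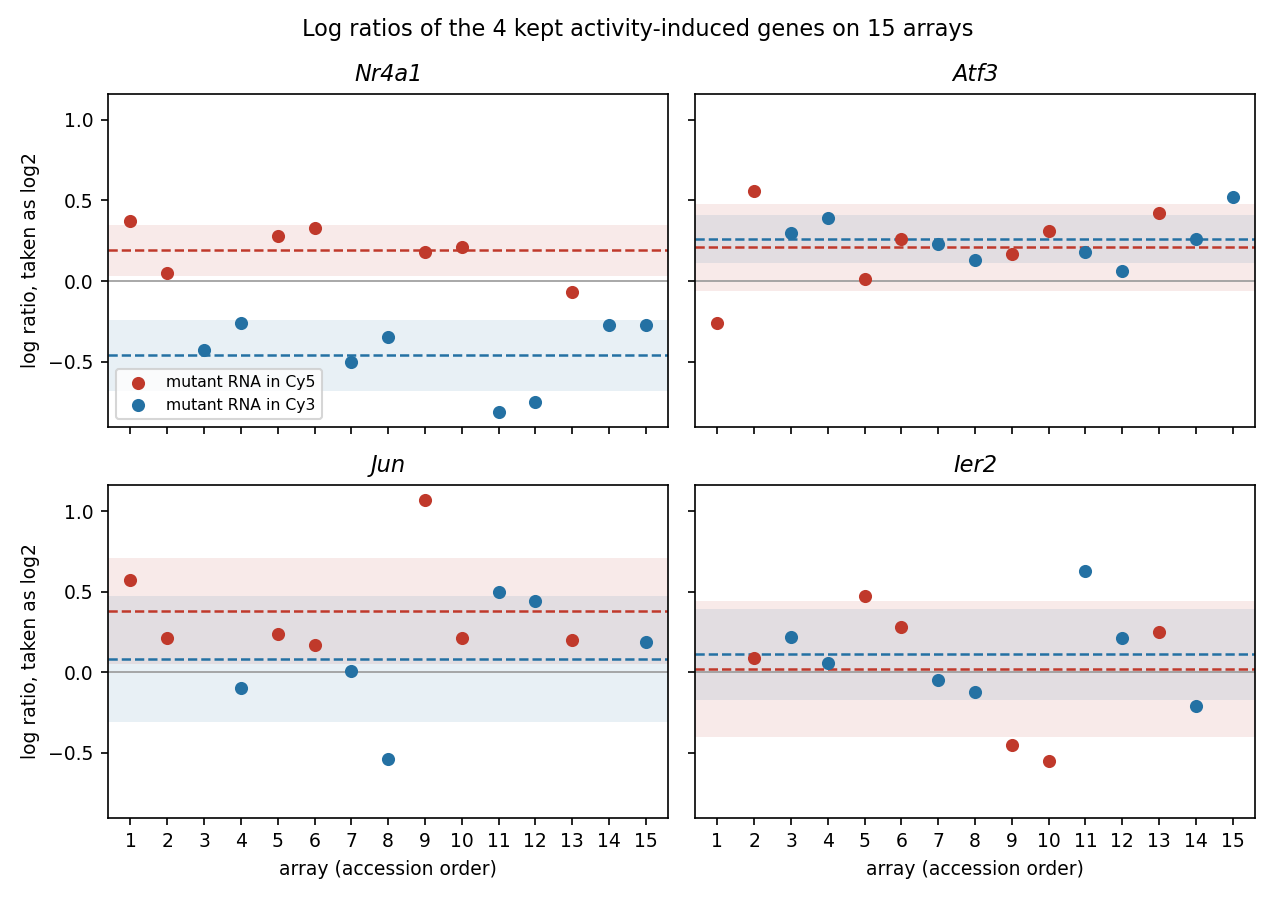
Log ratio (vertical axis, taken as log2) of Nr4a1, Atf3, Jun and Ier2 against array number in accession order, with mutant RNA in Cy5 (red) or Cy3 (blue). Dashed lines are the means of each orientation and shaded bands are ± 1 SD. The red and blue points of Nr4a1 do not overlap, with means of 0.19 and -0.46, whereas 14 of 15 Atf3 points lie above 0 in both colours.

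Jun encodes the AP-1 subunit that pairs with FOS proteins or with ATF3. Its kept probe had 13 values. With mutant RNA in Cy5 they ran from 0.17 through a median of 0.21 to 1.07 (n = 7), and with mutant RNA in Cy3 from -0.54 through 0.10 to 0.50 (n = 6). All 7 Cy5 values were above 0, as were 4 of 6 Cy3 values, and the orientations overlapped. The means were 0.38 ± 0.33 (SD) and 0.08 ± 0.39 (SD). The dye-switching component of Jun was 0.15, 95% confidence interval -0.06 to 0.36, limma adjusted p = 0.671. Its shared component was 0.23, interval 0.02 to 0.44, adjusted p = 0.503 and unadjusted p = 0.0312 in limma. The highest value came from array 9, at 1.07, and without arrays 9 and 10 the components were 0.10 and 0.18. The dye-switching component was 0.09 without array 8 alone or array 9 alone.

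Ier2, an early response gene that encodes a nuclear protein, had 13 values that crossed 0 in both orientations. With mutant RNA in Cy5 they ran from -0.55 through a median of 0.17 to 0.47 (n = 6), and with mutant RNA in Cy3 from -0.21 through 0.06 to 0.63 (n = 7). Both Cy5 values below 0 were those of arrays 9 and 10, at -0.45 and -0.55. The dye-switching component was -0.05, interval -0.25 to 0.16, limma adjusted p = 0.913, and turned to 0.08 without these arrays. The shared component was 0.06, interval -0.14 to 0.27, adjusted p = 0.851, and 0.19 without them. Nr4a1 and Atf3 moved little when arrays 9 and 10 were left out: the dye-switching component of Nr4a1 was 0.32 and the shared component of Atf3 was 0.23.

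The other probes of the class gave too few values to test. Fosb, an AP-1 subunit whose stable splice form accumulates with repeated activity, lay just outside the rule with 4 values in one orientation and 2 in the other. Its values with mutant RNA in Cy5 were -0.19, -1.33, -1.54 and -0.22, and those with mutant RNA in Cy3 were 0.55 and -0.30. A further Jun probe gave 4 values, 1.92, 1.37 and -1.52 with mutant RNA in Cy5 and -3.83 with mutant RNA in Cy3, which ran far wider than the kept Jun probe. Junb, another AP-1 subunit, had 1 value, -1.32. The kept probes with the fewest values were those of Jun, with 7 and 6, and Ier2, with 6 and 7. A probe annotated with both Rtn2 and Fosb had 1 value and was left out. Fos, Egr1, Egr2 and Arc had 0 single-gene probes under the updated annotation and were not analysed here.

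Set side by side, the kept genes took different positions in the plane of both components. Nr4a1 was the 1 of 4 past an adjusted p of 0.05 in the dye-switching component, where 52 of 8058 tested probes, 0.645%, were past it. Nothing is read from that count, because Nr4a1 was chosen for it. At an unadjusted limma p below 0.05 the counts were 1 of 4 against 9.57% of all probes in the dye-switching component. In the shared component they were 3 of 4, Nr4a1, Atf3 and Jun, against 9.49% of all probes. Nr4a1 lay below 0 there and Atf3 and Jun above, so the 3 did not share a direction. Nr4a1 and Atf3 were chosen on these components, so nothing is read from these counts either. In limma 0 of 4 members and 0 of 8058 probes, 0.0%, passed the adjusted threshold in the shared component, where 765 probes had an unadjusted p below 0.05. With robust regression 107 probes passed the adjusted threshold there, Atf3 the only kept member among them. Atf3 was chosen on this component, so nothing is read from that call. The members' medians were 0.06 and 0.15 in the dye-switching and shared components, beside 0.01 and 0.00 for all tested probes. Nr4a1 and Atf3 enter the members' medians, so nothing is read from that comparison.

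**Figure D2:**
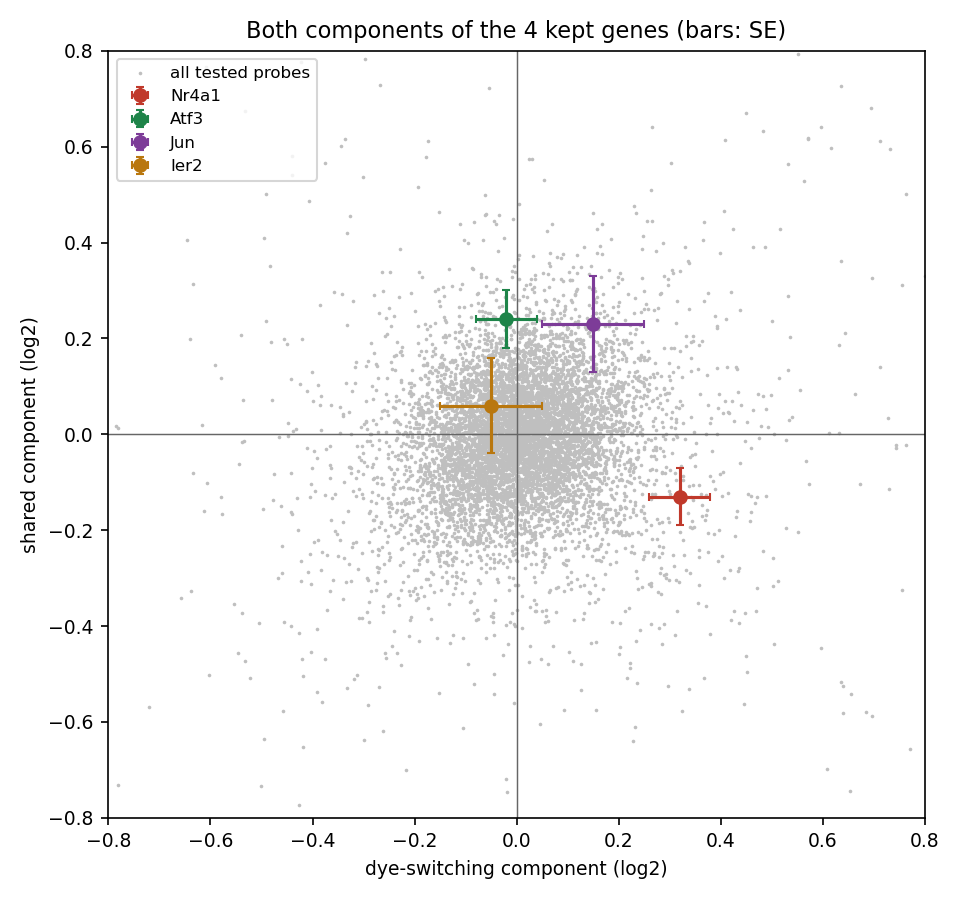
Dye-switching component (horizontal axis, log2) against shared component (vertical axis, log2) for all tested probes (grey) and for Nr4a1, Atf3, Jun and Ier2 (coloured, bars are ± 1 SE). Nr4a1 lies to the right at 0.32 and Atf3 lies above the centre at 0.24; 33 probes fall outside the axes, which end at 0.8 in size.

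Across arrays the kept genes showed little common movement. Pearson correlations of the 6 pairs, over 11 to 15 arrays that share the same wild-type pool, ran from -0.32 for Nr4a1 with Ier2 to 0.21 for Nr4a1 with Jun. Nr4a1 and Atf3 correlated at -0.15 over 15 arrays. After the mean of each orientation was removed, Nr4a1 correlated at -0.35 with Jun, at -0.41 with Ier2 and at -0.08 with Atf3. These correlations are descriptive.

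Arrays next to each other in accession order were also looked at in runs of 4 (3 in the last), each of which held both orientations. The dye-switching component of Nr4a1 was 0.28, 0.36, 0.49 and 0.10 in these runs. It was above 0 in each, largest in arrays 9 to 12, where the Cy3 mean was -0.78, and smallest in arrays 13 to 15. In that last run only array 13 had mutant RNA in Cy5, with Nr4a1 at -0.07. The shared component of Atf3 was 0.25, 0.16, 0.18 and 0.41, above 0 in each and largest in arrays 13 to 15. Both genes were chosen on these components, so nothing is read from their signs in the runs. The dye-switching component of Ier2 ran from -0.46 in arrays 9 to 12 to 0.23 in the second and the fourth run. With 1 value per run, the Nr4a1 component was 0.31 and missed the adjusted threshold, which 2 probes passed in that setting.

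**Figure D3:**
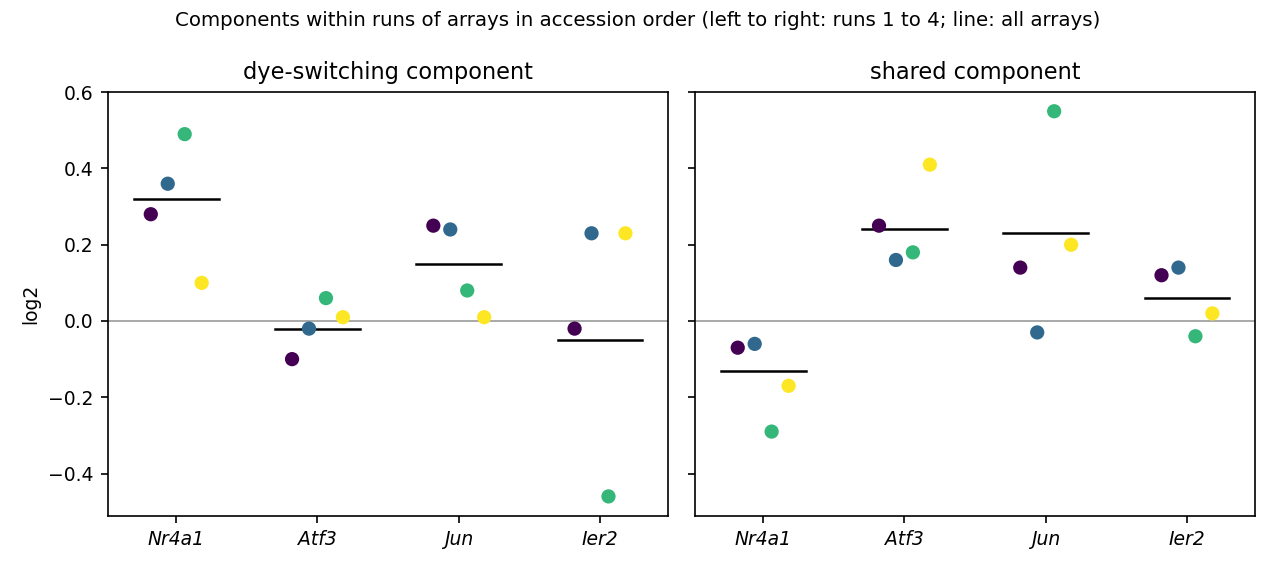
Dye-switching (left) and shared (right) components on a log2 axis for the 4 kept genes, computed within runs of 4 arrays in accession order (points, runs 1 to 4 from left to right, 3 arrays in run 4). Black lines are the components over all arrays. Nr4a1 stays above 0 on the left, from 0.10 to 0.49, and Atf3 stays above 0 on the right, from 0.16 to 0.41.

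Genes whose log ratios most resembled those of Nr4a1 were sought among 4190 single-gene probes sharing at least 12 arrays with it. The highest Pearson correlations over arrays were with Pbk, a mitotic kinase, at 0.87, Capn3, a calpain protease, at 0.85, and Mrpl48, Serpina12 and Xbp1, each at 0.84. The lowest were with the nucleotidase gene Nt5c2 at -0.91 and with Scg5 and Wdr11, each at -0.84. These correlations include the difference between the orientation means, on which Nr4a1 was chosen. Without the orientation means Pbk kept a correlation of 0.62 and Nt5c2 one of -0.51, whereas Capn3 stood at -0.01, Xbp1 at -0.06 and Serpina12 at 0.09. The dye-switching component of Pbk was 0.29 ± 0.07 (SE), limma adjusted p = 0.0957, close in size to that of Nr4a1.

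A different set of genes resembled Atf3 most. The highest correlations were with Adprm (0.88), Tfpt (0.85), Phyh (0.78), Fgf10 (0.78) and Incenp (0.73), over 12 to 15 arrays. The lowest were with Nes, the intermediate filament gene of neural progenitors (-0.79), Smap2 (-0.76) and the neuronal transcription factor gene Myt1l (-0.75). As for Nr4a1, these are the extremes of 4190 probes over few arrays. How large such extremes are among unrelated probes was not computed, so the correlations are descriptive. Here the orientation means mattered little: Adprm still stood at 0.88 and Nes at -0.84 without them. None of these 8 genes was past the adjusted threshold in either component, and their shared components ran from -0.01 for Nes to 0.46 ± 0.25 (SE) for Tfpt.

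Other genes of the pathway were followed in 5 lists. Of 43 tested probes for 41 genes in all lists together, 0 passed the adjusted threshold in either component by limma, and robust regression called 1 of the genes named here, Atf4. At an unadjusted p below 0.05 there were 6 probes (14%) in the dye-switching component and 9 (20.9%) in the shared component, beside 9.57% and 9.49% of all tested probes. In the dye-switching component all of these but Atf4 lay above 0. In the shared component they did not share a direction, with Crtc1 above 0 and Crebbp below it, for example. Many members were not measured, the Nr4a1 relative Nr4a2 among them, whose probe had a value on 0 arrays.

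The list of other activity-induced transcription factors also held early response genes that are not transcription factors, such as Ier3. Of its 23 genes, 5 were tested with 7 probes, with medians of -0.05 (dye-switching) and 0.03 (shared). Crem, a cyclic AMP responsive factor, had the largest component, -0.38 ± 0.17 (SE, shared, 9 arrays, adjusted p = 0.519). Klf4, a zinc finger factor, stood at 0.26 ± 0.11 (shared, adjusted p = 0.507). Ier3, an early response gene of cell survival, stood at 0.16 ± 0.08 on one probe and 0.09 ± 0.07 on another (shared).

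Among activity-induced effector genes, 9 of 33 were tested, with medians of 0.04 and 0.00. Dusp4, a phosphatase that switches off MAP kinases, had a shared component of -0.37 ± 0.20 (SE), with a wide spread when mutant RNA was in Cy3 (mean -0.68 ± 1.11 SD); without array 7 it was -0.18. Trib1, a pseudokinase, was at 0.21 ± 0.07 (dye-switching, adjusted p = 0.306) and 0.20 ± 0.07 (shared), from means of 0.41 and -0.02 in the Cy5 and Cy3 orientations. Plk2, a kinase that weakens synapses after activity, was at -0.18 ± 0.08 (shared, adjusted p = 0.511), and at -0.12 without array 1. Nptx2 was level with Plk2 in size, at -0.18 ± 0.08 (shared, adjusted p = 0.516).

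Of 35 upstream kinases and factors, 13 were tested, with medians of 0.00 and 0.05. Crebbp, the acetyltransferase recruited by CREB, had the largest dye-switching component, 0.60 ± 0.17 (SE, adjusted p = 0.237), from 9 arrays with means of 0.15 ± 0.45 (SD) and -1.04 ± 0.66 (SD). Its shared component, -0.45 ± 0.17 (SE, adjusted p = 0.481), was also the largest in size of the list. Crtc1, a CREB coactivator that moves to the nucleus with calcium, had a shared component of 0.28 ± 0.07 (SE, adjusted p = 0.337), close to that of Atf3. Mef2a, a calcium-regulated transcription factor, was at 0.24 ± 0.19 (dye-switching), but at 0.01 without array 5 and 0.37 without array 10.

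Of 24 stress response genes and partners around Atf3, 7 were tested, with medians of 0.03 and 0.00. Atf4, which induces Atf3 in the integrated stress response, had a dye-switching component of -0.28 ± 0.07 (SE, adjusted p = 0.0967), opposite in sign to that of Nr4a1, and its shared component was 0.07 ± 0.07. With robust regression its adjusted p was 0.0362. Ddit4, a stress-induced inhibitor of mTOR signalling, stood at 0.89 ± 0.50 (shared) on 8 arrays whose SD was 1.40 and 2.06 within the orientations, and at 0.39 without array 11. Batf, a basic leucine zipper partner of JUN proteins, was at 0.32 ± 0.16 (dye-switching, adjusted p = 0.56), and at 0.19 without array 5. Of 20 other nuclear receptors 7 were tested, with medians of 0.05 and 0.01. Their largest components were Ppara at -0.30 ± 0.22, Rxrg, a retinoid X receptor, at 0.20 ± 0.09 and Ppard at 0.14 ± 0.09, all shared. Ppara was at -0.14 without array 3, so its place in that order rested on 1 array.

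**Figure D4:**
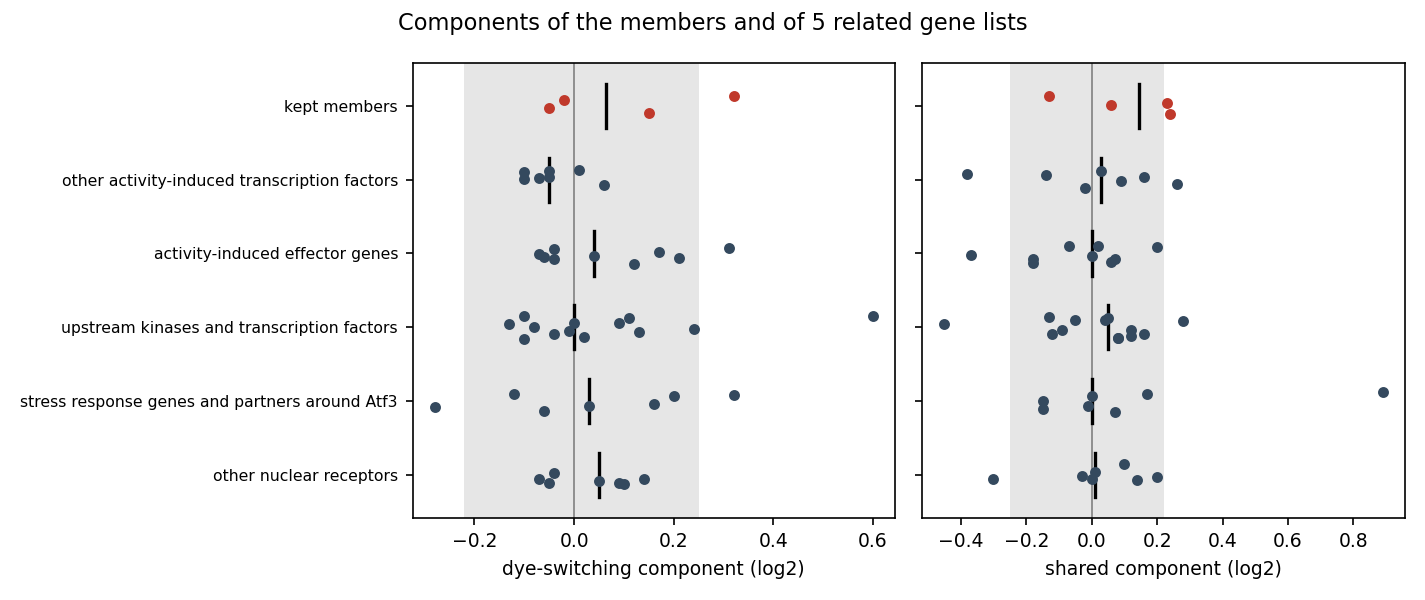
Dye-switching (left) and shared (right) components on log2 axes of the 4 kept members (red) and of the tested probes of 5 related lists (dark points), with medians as black bars. Grey bands span the 5th to 95th percentile of all tested probes, -0.22 to 0.25 on the left and -0.25 to 0.22 on the right. The medians of the 5 lists lie between -0.05 and 0.05.

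Markers of the cell types in brain and of tissues near it were measured too. Of 29 tested marker probes for 24 genes, 1 passed in the dye-switching component, beside 0.645% of all tested probes. It was the neuronal surface gene Thy1 at -0.53 ± 0.11 (SE, limma adjusted p = 0.0276), opposite in sign to Nr4a1. The Thy1 call was lost under 10 of 28 alternatives, among them leaving out any 1 of arrays 1 to 4 and 9 to 12 (adjusted p up to 0.0649). At an unadjusted limma p below 0.05 there were 5 marker probes (17.2%) in the dye-switching component, beside 9.57% of all. In the shared component 0 of 29 marker probes passed the adjusted threshold, as did 0 of all tested probes. At an unadjusted limma p below 0.05 there were 0 marker probes there, beside 9.49% of all. In the dye-switching component, the median of the 7 tested neuronal markers was 0.02, that of the 3 markers of excitatory forebrain neurons 0.09, and that of the 5 astrocyte probes -0.04. The probes of the astrocyte gene Glul differed, at 0.46 ± 0.18 (SE, limma adjusted p = 0.421) and -0.01 ± 0.08. Those of Mbp, the only tested oligodendrocyte marker, stood at -0.22 ± 0.09 (limma adjusted p = 0.419) and -0.03 ± 0.08. The part of cell composition in the Nr4a1 and Atf3 values was not tested.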

How the data were processed

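Brain RNA of O377 mutants and a wild-type pool was compared on 15 arrays with 2 colours. The values the authors deposited are log ratios, read here as log2. Their base, direction, spot filter and normalization are not given in the sources used here. Base 2 was assumed, since sizes reach 12.33, beyond what scanner ratios span as natural logs. Scanner intensities were not analysed here.

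Gene names came from the platform annotation and were brought up to date by gene identifier with RefSeq GRCm38.p6; of 20205 probes, 11723 had 1 gene symbol, 806 several and 7676 none. Promoter sequences come from RefSeq (GRCm38.p6); 7 of the 10 genes in the rule had an entry.

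A linear model with a term for dye orientation was fitted in limma 3.58.1 (R 4.3.3) to 8058 probes measured on 4 or more arrays per orientation, with eBayes moderation and Benjamini-Hochberg adjustment over all of them (threshold 0.05). It was tested on simulated data. The number of arrays limits the precision: the median SE of a component was 0.0897. The members and lists were chosen with earlier results of these data known. Genes named from a list are the 3 with the largest component and any past the threshold. Nptx2 is added because it was level with the third of its list. Likeness is Pearson's r over at least 12 shared arrays, naming the 5 highest and 3 lowest. Thy1 is named as the marker that passed. Alternatives were other centring, scaling, filters, weights, robust fits, limited values, averaged probes, no dye term, runs of arrays, and arrays left out. Figures were drawn with matplotlib 3.10.9.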

Additional observations from a re-analysis of the deposited data

How the results depend on the processing

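Each component was recomputed under 28 alternatives. The count of 52 probes past the threshold in the dye-switching component was 204 with robust regression and 2 with 1 value per run of 4 arrays, and 36 to 48 when each array was left out in turn. The shared count of 0 was 107 with robust regression, and 0 when each array was left out. Nr4a1 stayed between 0.30 and 0.35 in the dye-switching component under all 28, and missed the threshold under 1, that with 1 value per run. Atf3 stayed between 0.21 and 0.27 in the shared component, and passed the threshold under 1, robust regression. Both genes were chosen on these components, so these calls are given as a description and nothing is read from them. Components near 0 changed sign: that of Atf3 (dye-switching) ran from -0.05 to 0.01 when 1 array was left out, reaching 0.01 without array 1. That of Ier2 (dye-switching) became 0.04 with array weights and 0.08 without arrays 9 and 10, and ran from -0.09 to 0.01 when 1 array was left out. Both Jun components kept their sign and missed the threshold under all 28. Thy1 kept its sign and missed the threshold under 10. For none of these was the cause tested. No paired analysis was possible because the labels give no replicate numbers that the orientations share. Filtered spots cannot be told from dim ones, which limits Fosb, Junb and the further Jun probe.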

Other observations

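Within each dye orientation the values of the 4 kept genes were checked for an array far from the others. Of 8 sets of values, 0 held one. Arrays 11 and 12, the lowest for Nr4a1, were also the highest Cy3 arrays for Jun (0.50 and 0.44), and array 11 was the highest of all for Ier2 (0.63). Among tissue markers outside the brain parenchyma, the pituitary hormone genes Prl and Pomc had dye-switching components of 0.38 ± 0.19 (SE) and -0.26 ± 0.12, with limma adjusted p of 0.542 and 0.491. The third tested pituitary gene, Gh, stood at 0.03 ± 0.10, which was also the median of that list. The smooth muscle actin gene Acta2 stood at 0.21 ± 0.05, adjusted p = 0.0756, with means of 0.23 ± 0.14 (SD, n = 7) and -0.19 ± 0.13 (SD, n = 8). The other endothelium and pericyte probes stood at -0.36 ± 0.33 (Pdgfrb), -0.14 ± 0.09 and 0.04 ± 0.10 (Flt1), and the list's median was -0.05. Acta2, Prl, Pomc, Glul and Mbp were named after their values were seen.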
